A study of Mus musculus with 12 samples.

Results

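The genes measured here encode the subunits of potassium channels, taken as every gene whose symbol on the array begins with Kcn. Of 19505 named genes in the series, 90 carried such a symbol, and each was represented by 1 probe set. Grouped by symbol, 36 were pore-forming subunits of voltage-gated channels and 13 were accessory or regulatory genes of those channels. There were 15 inward rectifiers, 14 two-pore-domain channels and 11 genes grouped with the channels activated by calcium or sodium. Kcnrg among the 13 and Kcnu1 among the 11 were placed by symbol alone. The last was 1 non-coding RNA, Kcnq1ot1, which runs antisense within the Kcnq1 locus and is no channel. Myocardium of 12 mice was profiled on single-colour expression arrays, with 1 array per mouse and 4 mice per group. NC mice were given vehicle injections on 5 days. DM mice were given streptozotocin, which destroys the beta cells that make insulin, on 5 days, and entered the study with a fasting glucose of at least 16.7 mM. DM_AngIV mice were diabetic in the same manner and received angiotensin IV, a peptide fragment of angiotensin II, by infusion at 2.88 mg/kg/day between weeks 8 and 24. All tissue carries the time label of 6 months. The labels name neither strain, sex nor the part of the heart that was sampled, and the diabetes is the result of a beta cell toxin in every diabetic mouse.

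Potassium channels carry the outward currents that end each cardiac action potential and hold the resting potential. In the mouse ventricle, where action potentials are short, the transient outward current (Kcnd2, Kcnd3 and their partner Kcnip2) and fast delayed rectifiers (among them Kcna5) do most of the early repolarization, while Kcnj2 and Kcnj12 set the resting potential. Kcnj11 and Kcnj8 form channels that open when cellular ATP falls, and Kcnj3 with Kcnj5 forms the channel through which acetylcholine slows the atria. Reduced potassium currents and slowed repolarization are well-known features of the diabetic rodent heart.

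None of the 90 genes passed the threshold in any comparison of the groups, so every difference given here is a measured value that was not called. Among genes above background in a group, the smallest unadjusted p-values of limma were in Kcne1, Kcnn2, Kcnh2, Kcnj11 and Kcnj12. Kcne1 was higher in DM than in both other groups, but it was above background on only 4 of 12 arrays. Kcnn2 was lower in DM than in DM_AngIV, and Kcnh2, Kcnj11 and Kcnj12 were higher in DM_AngIV than in NC. For Kcnd2, Kcnd3 and Kcnip2 of the transient outward current, and for Kcnj2, the 95% interval included 0 in every comparison. A gene was called when the Benjamini-Hochberg adjusted p of limma over all 19505 genes was below 0.05. All 3 comparisons share arrays, and in whole tissue fewer cells of a type and less RNA per cell cannot be told apart.

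The tissue label was checked against marker genes. All 9 genes listed for ventricular cardiomyocytes were above background on all 12 arrays, with list means between 11.20 and 11.37 on the log2 scale. Most of them mark cardiomyocytes of any chamber, so the list does not tell which part of the heart was sampled. The mean of 6 atrial cardiomyocyte markers ranged from 4.89 to 8.32 in NC, from 4.45 to 7.81 in DM and from 4.83 to 5.14 in DM_AngIV. Myl7, the atrial myosin light chain used here to split the arrays, was above background on 5 arrays (NC replicates 1 and 3, DM replicates 1, 2 and 4) and lay between 3.53 and 4.28 on the other 7. Myl4 and Sln were higher on those 5 arrays than on the other 7. Background alone split the markers differently, with Myl4 and Nppa above it on all 12 arrays, Sln on 11 and Bmp10 on none. Dkk3 was above it on 5 arrays, namely NC replicates 1 and 3, DM replicates 1 and 2, and DM_AngIV replicate 3. Nppa followed Myl7 only in part. It was highest on NC replicate 1 and DM replicates 1 and 2, all with Myl7 above background. DM_AngIV replicate 4, without Myl7, read 9.65, above NC replicate 3 (8.79) and DM replicate 4 (8.93), both with Myl7. The log2 difference of DM_AngIV from DM was 0.04 for Nppa, where Myl7 had −3.93. That value includes DM replicate 3, at 5.12, where the other DM arrays read 8.93 or more. For Kcne1, Kcnn1, Kcnn2, Kcnh2, Kcnj11, Kcnj12 and Kcnj14, log2 differences are also given without the 5 arrays with Myl7 above background, which leaves only 1 DM array. Smooth muscle and pericyte markers (8 genes) had list means between 5.85 and 7.33, highest in NC replicate 1, where Rgs5 and Pdgfrb were at their lowest. Of 6 sinus node markers measured, 5 were above background on no array.

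Background was set at 4.96, below which 95% of the values of 246 reporter controls lie. Of the 90 genes, 19 (21.1%) exceeded it on all 12 arrays, 15 on some arrays and 56 (62.2%) on none. Over all named genes the corresponding shares were 36.1% on all arrays and 49.7% on none. Probe sets differ in their response, so signals of different genes are not set against each other. Mean signals over the arrays placed Kcng1 (4.97) just above the value and Kcng2 (4.90) just below it. Among voltage-gated pore subunits 5 were above background throughout. They were Kcnd2 and Kcnd3 of the transient outward current, Kcna5 of a rapidly activating delayed rectifier, Kcnh2, the mouse ERG channel of the rapid delayed rectifier, and Kcnq1 of the slow delayed rectifier. Another 6 passed on part of the arrays, and 25 on none. Kcna7, a delayed rectifier best known from striated muscle, was above background on 11 arrays, with group means between 5.08 ± 0.05 (NC) and 5.22 ± 0.27 (DM; SD, n = 4). Kcna4, which carries a slowly recovering outward current, was among those 25, with values between 1.80 and 2.70. Of the accessory subunits Kcnip2, the calcium-binding partner of Kcnd2 and Kcnd3, was above background throughout, Kcne1 and Kcnab2 on some arrays and 10 on none.

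Of the 15 inward rectifiers, 6 were above background on all arrays. These were Kcnj11 and Kcnj8 (pores of ATP-sensitive channels), Kcnj12, Kcnj3, Kcnj5 and Kcnj14. Kcnj2 was above background on 6 of 12 arrays. Kcnk3, an acid-sensitive background channel, and Kcnk13 were the 2 of 14 two-pore-domain genes above background throughout. In the group with the channels activated by calcium or sodium, 5 of 11 were above it on all arrays. These were the small-conductance channels Kcnn1 and Kcnn2 and the accessory subunits Kcnmb1, Kcnmb3 and Kcnmb4. Kcnj16, Kcnc2 and Kcns2 were below background on every array, with values between 0.96 and 1.93.

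**Figure D1:**
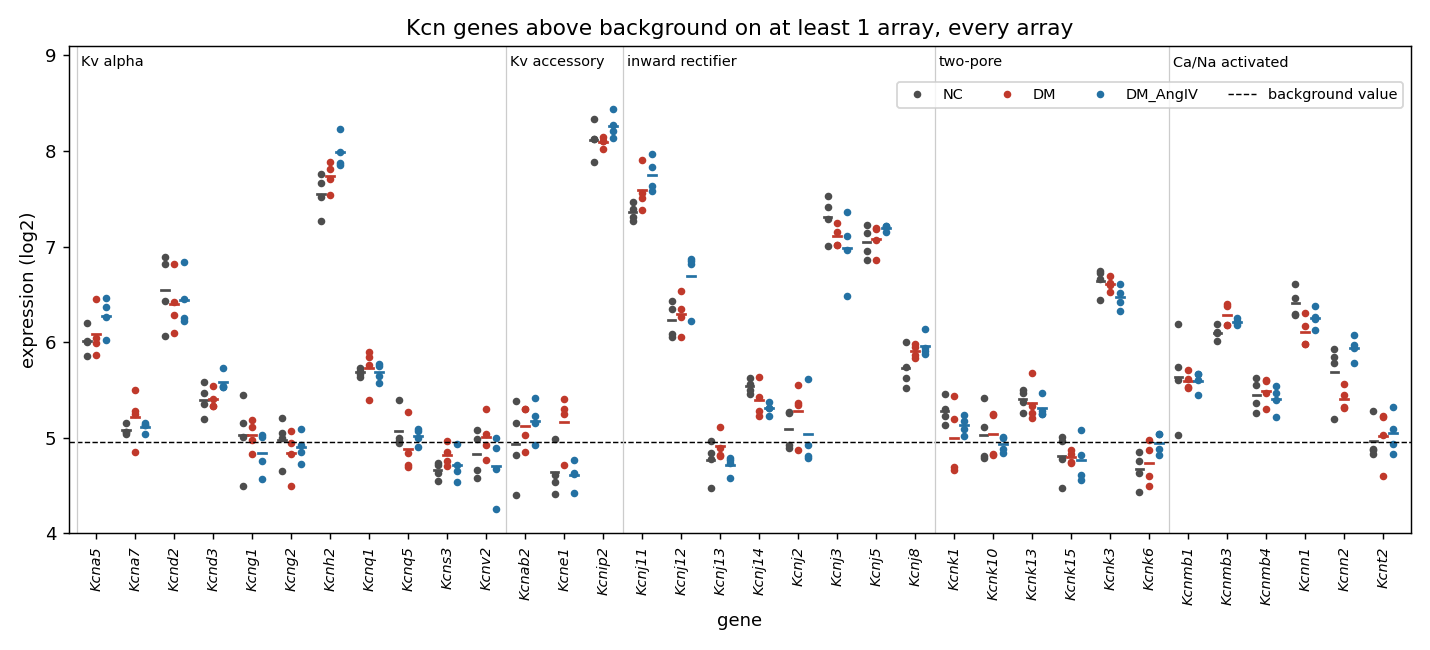
Expression (log2) on every array for the 34 Kcn genes above background on at least 1 array, grouped by class; points are arrays coloured by group, short bars are group means and the dashed line is the background value of 4.96. In most genes the points of the 3 groups overlap, and Kcnh2, Kcnj11, Kcnj12 and Kcnn2 show the blue DM_AngIV points toward the top.

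Diabetes was examined first, by DM against NC. Of the 90 genes 0 were called, where 0.0154% of all genes were. At an unadjusted p below 0.05 there were 9 Kcn genes against 8.95% of all genes (10% of the family), and in 4 the groups did not overlap (4.44%, against 4.54% of all genes). Both shares lie near those of all genes. Positive and negative values were balanced, 44 and 46, with a median log2 fold change of −0.01 (all genes −0.00101). Of the 9 genes only Kcne1 and Kcnn1 were above background in a group.

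Kcne1 encodes a small membrane protein that slows the opening of Kcnq1 channels. It read 4.62, 4.41, 4.99 and 4.54 on the NC arrays, 5.30, 5.25, 5.41 and 4.72 on the DM arrays, and 4.63, 4.77, 4.42 and 4.62 on the DM_AngIV arrays. The first 3 DM arrays were above all others, while DM replicate 4 lay inside the range of the other groups. The log2 difference of DM from NC was 0.53 ± 0.16 (SE; 95% interval 0.20 to 0.86; limma adjusted p = 0.308). These signals lie at the edge of detection, with 1 NC array, 3 DM arrays and 0 DM_AngIV arrays above background. The 3 DM arrays that were high include 2 with Myl7 and 1 without (DM replicate 3, at 5.41). With the atrial marker mean as a covariate the difference was 0.53, and without the arrays with Myl7 it was 0.94 on 1 DM array.

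Kcnn1, a small-conductance channel opened by calcium, read 6.30, 6.46, 6.29 and 6.61 in NC and 6.17, 5.98, 6.31 and 5.98 in DM. Only DM replicate 3 reached into the NC range. The log2 difference was −0.31 ± 0.11 (SE; 95% interval −0.55 to −0.06; limma adjusted p = 0.441), and −0.23 without the arrays with Myl7. In DM_AngIV it lay at 6.25 ± 0.10 (SD, n = 4), between the other means. The other 7 genes were not above background in either group, so no fold is given. Of these, Kcnab3 and Kcnh8 had higher signals in DM, and Kcne3 and Kcnk7 lower ones (limma adjusted p between 0.340 and 0.426). Kcnh8 had a negative value without the arrays with Myl7.

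The genes that carry the main ventricular currents stayed within the spread between mice in this comparison. Kcnd2 had means of 6.55 ± 0.38 in NC and 6.40 ± 0.31 in DM (SD, n = 4; limma adjusted p = 0.889), and the 95% interval of its difference ran from −0.56 to 0.27. Kcnd3 was at 5.40 in both groups, with an interval from −0.23 to 0.23. Kcnip2 was at 8.12 ± 0.19 and 8.10 ± 0.06, with an interval from −0.26 to 0.21 (limma adjusted p = 0.976). Kcnq1 was at 5.69 ± 0.04 and 5.73 ± 0.23, and Kcna5 at 6.02 ± 0.14 and 6.09 ± 0.25. Over the 19 genes above background on all arrays, log2 differences ran from −0.31 to 0.23, and the median half-width of their 95% intervals was 0.25. The bound farthest from 0 among these 19 intervals was 0.58 in size, the lower bound of Kcnn2.

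**Figure D2:**
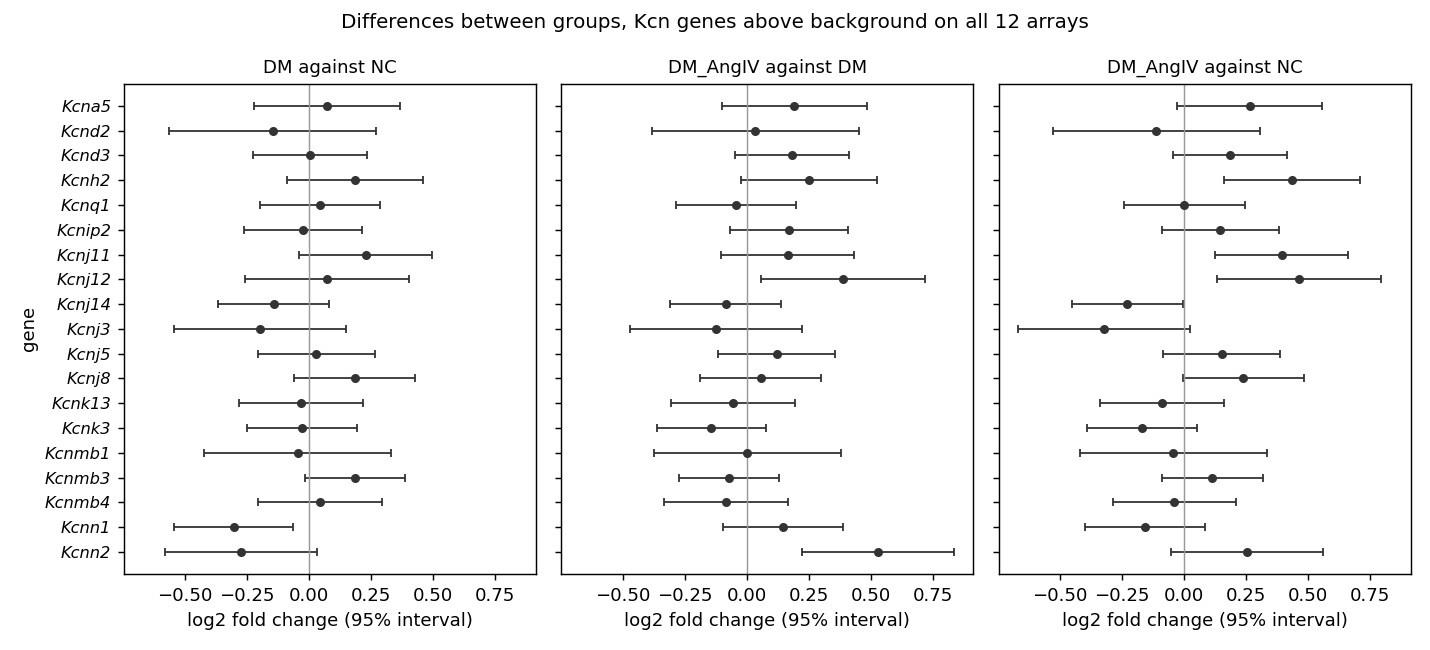
Log2 fold changes (points) with 95% intervals (bars) from the limma fit for the 19 Kcn genes above background on all 12 arrays, 1 panel per comparison. Kcnn1 in DM against NC, Kcnn2 and Kcnj12 in DM_AngIV against DM, and Kcnh2, Kcnj11, Kcnj12 and Kcnj14 in DM_AngIV against NC have intervals that leave out 0, before any adjustment for the number of genes.

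The effect of angiotensin IV on the diabetic heart was examined with DM_AngIV against DM. No gene of the array was called (0%), and so 0 of the 90. There were 4 Kcn genes at an unadjusted p below 0.05 (4.44%, against 7.48% of all genes) and 4 whose groups did not overlap (4.44%, against 5.01%). The family median was −0.01, beside −0.000708 for all genes, with 41 positive and 49 negative values.

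Kcnn2 belongs to the same small-conductance channels as Kcnn1 and is known in mouse heart mainly from the atria. Its values were 5.33, 5.56, 5.45 and 5.31 in DM and 6.07, 5.78, 5.97 and 5.94 in DM_AngIV. Every DM_AngIV array was above every DM array. The log2 difference was 0.53 ± 0.14 (SE; 95% interval 0.22 to 0.84; limma adjusted p = 0.511). The NC arrays read 5.20, 5.93, 5.85 and 5.78, so that 3 of them lay beside DM_AngIV and replicate 1 beside DM. Of the 5 lowest arrays, 4 had Myl7 above background, and NC replicate 3, also with Myl7, read 5.85. With the atrial covariate the difference was 0.39, and without the arrays with Myl7 it was 0.49. The part of atrial tissue in it was not tested further.

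Kcne1 had the opposite sign in the same comparison. Its log2 difference was −0.56 ± 0.16 (SE; 95% interval −0.89 to −0.23; limma adjusted p = 0.511). No DM_AngIV array was above background, and with DM_AngIV values set to no less than 4.96 the measured mean was 1.16-fold lower. This fold carries no error and depends on the background chosen. At the 99th percentile of the controls (5.79) every Kcne1 value, at most 5.41, was below background. Without the arrays with Myl7 the log2 difference was −0.80. The same DM arrays enter this comparison and that with NC, so the values of Kcne1 in both are not independent. Over the 3 groups at once, the moderated F test of limma called 0 of the 90 genes (0.385% of all genes), and Kcne1 had the smallest value in the family (adjusted p = 0.173). Without DM replicate 4 Kcne1 passed that test (adjusted p = 0.0425). That array had the lowest DM value of Kcne1 (4.72), so leaving it out widens the difference by construction.

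Kcnj13, an inward rectifier at the background value, lay between 4.58 and 4.79 in DM_AngIV and between 4.81 and 5.11 in DM, and so did not overlap (limma adjusted p = 0.739). With 1 DM array and 0 DM_AngIV arrays above background, no fold is given. Of the low signals, those of Kcna6 and Kcnk2, above background in neither group, were higher in DM_AngIV (limma adjusted p = 0.643 and 0.676). Kcnab3, likewise below background in both groups, also did not overlap.

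**Figure D3:**
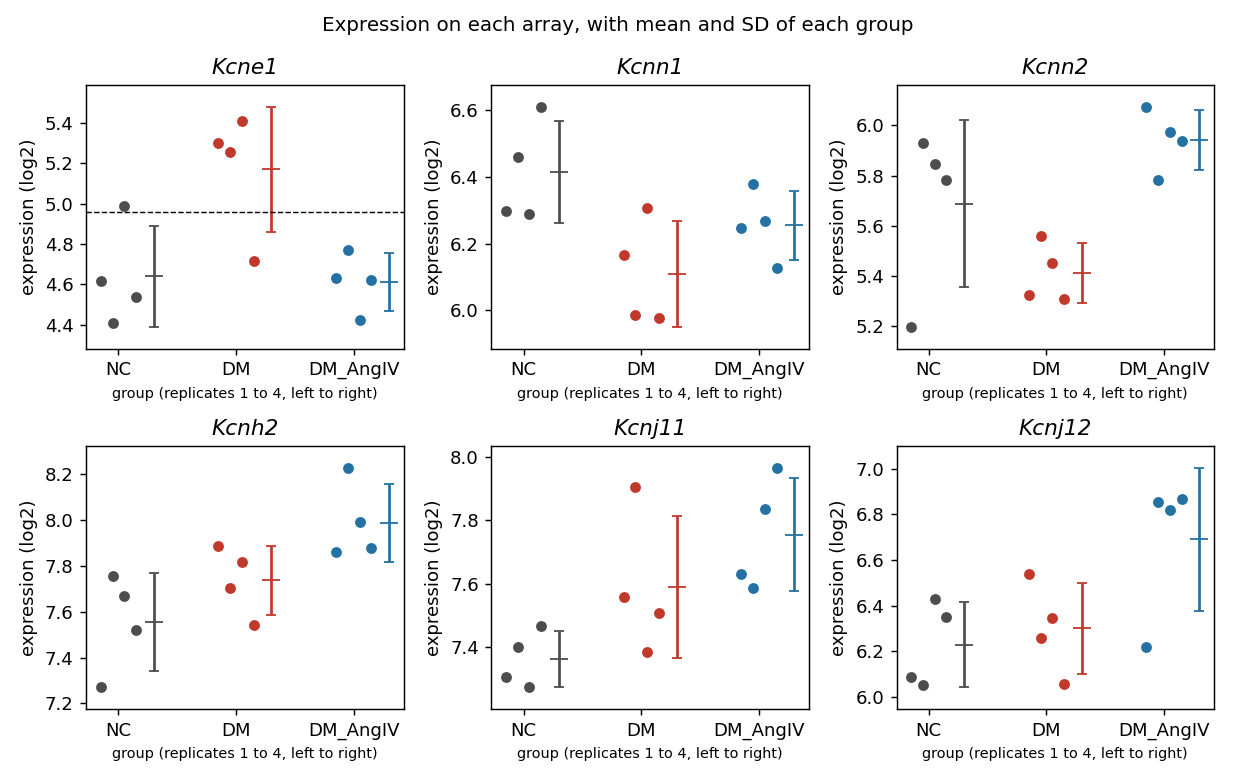
Expression (log2) of 6 Kcn genes on each array, with group means and SD (bars; n = 4); the dashed line in the Kcne1 panel is the background value and the vertical axes differ between panels. Kcne1 is high on 3 of 4 DM arrays, Kcnn2 separates DM from DM_AngIV, and Kcnh2 and Kcnj11 separate NC from DM_AngIV.

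Treated diabetic hearts were also set against NC, the comparison in which the array as a whole moved most, with 198 genes called (1.02%). None of these was a Kcn gene. The family had 6 genes at an unadjusted p below 0.05 (6.67%, against 14.6% of all genes) and 3 whose groups did not overlap (3.33%, against 9.83%). Its median was −0.04, beside −0.01 for all genes.

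Kcnh2 read 7.27, 7.76, 7.67 and 7.52 in NC, 7.89, 7.70, 7.82 and 7.54 in DM, and 7.86, 8.23, 7.99 and 7.88 in DM_AngIV. The treated arrays all lay above the NC arrays, and the DM arrays overlapped both groups. Its log2 difference from NC was 0.44 ± 0.13 (SE; 95% interval 0.16 to 0.71; limma adjusted p = 0.118). It was called with a trended and robust prior on the variance (adjusted p = 0.0368), and over the alternatives its adjusted p reached 0.364. Without the arrays with Myl7 the difference was 0.35. Against DM it was 0.25 (limma adjusted p = 0.681), which became 0.17 without those arrays and 0.16 with the atrial covariate.

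Kcnj11, which forms the pore of the ATP-sensitive channel of ventricular muscle, read 7.31, 7.40, 7.27 and 7.47 in NC against 7.63, 7.59, 7.84 and 7.96 in DM_AngIV, with no overlap. Its log2 difference was 0.39 ± 0.13 (SE; 95% interval 0.13 to 0.66; limma adjusted p = 0.150), and 0.32 without the arrays with Myl7. DM lay between at 7.59 ± 0.22 (SD, n = 4). Kcnj8, the vascular counterpart, was at 5.73 ± 0.21 in NC and 5.97 ± 0.12 in DM_AngIV (limma adjusted p = 0.351). The regulatory subunits that pair with these pores, Abcc8 and Abcc9, had log2 differences of 0.22 and 0.16 (limma adjusted p = 0.509 and 0.543).

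Kcnj12, the second pore of the resting inward rectifier current, read 6.09, 6.05, 6.43 and 6.35 in NC and 6.22, 6.85, 6.82 and 6.87 in DM_AngIV. Replicate 1 of DM_AngIV lay inside the NC range and the other 3 above it. The log2 difference was 0.46 ± 0.16 (SE; 95% interval 0.13 to 0.79; limma adjusted p = 0.173). Without replicate 1 of DM_AngIV it was 0.62 and was called (adjusted p = 0.0499). Leaving out the treated array nearest to NC widens the difference by construction, and Kcnj12 was called under no other alternative. Against DM the difference was 0.39 ± 0.16 (limma adjusted p = 0.627). Without the arrays with Myl7 Kcnj12 differed by 0.49 from NC and by 0.34 from DM. Kcnj2, which forms the same current, had means of 5.09 ± 0.21 for NC, 5.28 ± 0.29 for DM and 5.04 ± 0.39 for DM_AngIV (SD, n = 4), and an interval from −0.45 to 0.34 for DM_AngIV against NC.

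Kcnj14, an inward rectifier, was lower in DM_AngIV than in NC, from 5.54 ± 0.07 to 5.31 ± 0.06 with no overlap (limma adjusted p = 0.332), and Kcnk6, a two-pore-domain channel, was at 4.94 ± 0.11 against 4.67 ± 0.18 (adjusted p = 0.338). Kcnk6 was above background on 0 NC and 2 DM_AngIV arrays, so no fold is given. Without the arrays with Myl7 the log2 difference of Kcnj14 was −0.29, where all arrays gave −0.23. Kcnh4 had the smallest p of the family in this comparison (limma adjusted p = 0.109) but was above background on no array. Of the channel of the atrial acetylcholine response, Kcnj3 was at 7.31 ± 0.22 in NC and 6.98 ± 0.37 in DM_AngIV and Kcnj5 at 7.05 ± 0.17 and 7.20 ± 0.03 (SD, n = 4; limma adjusted p = 0.380 and 0.579). Kcnk3 was at 6.64 ± 0.14 and 6.47 ± 0.12 (adjusted p = 0.481).

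The promoters of Kcnh2 and Kcnj12, the 2 genes called in this comparison under an alternative, are shown with that of Kcnj2, the partner of Kcnj12 whose interval included 0, as the 250 bases before the start in RefSeq (GRCm38.p6). Capitals mark the palindromic E-box CACGTG, which factors of the circadian clock are known to bind. Kcnh2 lies at chr5:24329592-24329841, minus strand, Kcnj12 at chr11:61065554-61065803, plus strand and Kcnj2 at chr11:111065914-111066163, plus strand.
Kcnh2: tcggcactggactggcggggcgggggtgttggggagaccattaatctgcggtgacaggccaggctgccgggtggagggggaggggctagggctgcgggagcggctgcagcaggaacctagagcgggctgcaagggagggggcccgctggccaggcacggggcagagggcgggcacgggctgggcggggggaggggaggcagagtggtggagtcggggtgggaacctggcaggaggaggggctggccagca
Kcnj12: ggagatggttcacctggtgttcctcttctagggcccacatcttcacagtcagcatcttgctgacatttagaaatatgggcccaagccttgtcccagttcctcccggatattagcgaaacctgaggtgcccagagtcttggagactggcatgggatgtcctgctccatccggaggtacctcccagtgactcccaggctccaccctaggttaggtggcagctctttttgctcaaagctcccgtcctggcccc
Kcnj2: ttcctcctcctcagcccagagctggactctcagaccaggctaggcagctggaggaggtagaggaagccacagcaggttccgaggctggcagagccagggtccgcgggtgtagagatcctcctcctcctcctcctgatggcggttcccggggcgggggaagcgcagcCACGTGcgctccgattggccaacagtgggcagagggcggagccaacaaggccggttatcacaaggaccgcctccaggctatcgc
The Kcnj2 window held 1 E-box, beginning 84 bases before the start, and the Kcnh2 and Kcnj12 windows held none. The Kcnh2 window was 73.6% G and C, the Kcnj2 window 65.6% and the Kcnj12 window 56%. Promoters of 69 of the 90 genes were in the table. Of these, 5 genes (7.25%) had an E-box in at least 1 window, Kcnab1, Kcne4, Kcnh4, Kcnj2 and Kcnn4, against 6.86% of all 27025 genes in the table. The TATA box, searched as TATAAA on both strands, was in windows of 3 of the 69 genes (4.35%), against 14.3% of all genes. Matches of different motifs were counted separately and may share letters, and a match describes the sequence alone.

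A site of the GATA factors, searched as AGATAA on both strands, was likewise in windows of 3 of the 69 genes (4.35%), against 11.4% of all genes.

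Other genes of repolarization and conduction, from a list of 34 of which 28 were measured, had 0 calls in each comparison in either direction. Their median log2 differences were −0.03 for DM against NC, 0.03 for DM_AngIV against DM and 0.01 for DM_AngIV against NC, beside −0.00101, −0.000708 and −0.01 for all genes. The member nearest a call was Klf15, the transcription factor known to drive rhythmic Kcnip2 expression, which read 5.79 ± 0.17 for NC, 6.18 ± 0.20 for DM and 6.46 ± 0.34 for DM_AngIV (SD, n = 4; limma adjusted p = 0.0621 for DM_AngIV against NC). Kcnip2 itself was at 8.27 ± 0.13 in DM_AngIV, 0.15 from NC with an interval from −0.09 to 0.38.

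Single arrays varied in ways that the groups did not capture. Kcnd2 read 6.07, 6.89, 6.82 and 6.43 in NC, 6.29, 6.09, 6.82 and 6.42 in DM, and 6.45, 6.83, 6.22 and 6.26 in DM_AngIV. Its residual SD of 0.33 was the highest of the 19 genes above background throughout, whose median was 0.15 (0.15 over all genes above background throughout). Kcnj3 was highest on the same array of each group as Kcnd2 (NC replicate 2, DM replicate 3 and DM_AngIV replicate 2), at 7.53, 7.25 and 7.36. Kcnj2 was highest on DM replicate 3 and DM_AngIV replicate 2, at 5.55 and 5.62, and on NC replicate 3, at 5.27, where replicate 2 read 5.26. These genes were picked after their values were seen, and the other genes did not all follow. Over the 19 genes above background throughout, NC replicate 2 was highest in its group for 7 and lowest for 4, DM replicate 3 highest for 6 and lowest for 6, and DM_AngIV replicate 2 highest for 7 and lowest for 4. The lowest NC values of Kcnd2, Kcnj3 and Kcnn2 were all on replicate 1, which had the highest atrial marker mean (8.32). DM replicate 3, the highest for Kcnd2 and Kcnj3 in its group, had the lowest (4.45), and its Nppa read 5.12 against 7.33 to 10.51 elsewhere. Its Myl7, Myl4 and Sln (3.97, 5.66 and 5.16) were above those of DM_AngIV replicate 2 (3.58, 5.10 and 4.83), so the low mean rests on Nppa. In DM_AngIV, where the atrial marker mean stayed between 4.83 and 5.14, Kcnj3 still ranged from 6.49 to 7.36. The part of atrial tissue in these values was not tested.

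Kcnmb1, the accessory subunit of the large-conductance channel of smooth muscle, was the other variable gene. In NC it read 6.19, 5.61, 5.03 and 5.74, while in DM and DM_AngIV it stayed between 5.45 and 5.71. Replicate 1 of NC, at 6.19, also had the highest mean of the smooth muscle and pericyte markers (7.33). The markers did not move together on that array. Acta2, Myh11, Tagln, Cnn1 and Mcam were at their highest of all 12 arrays, Rgs5 (7.91) and Pdgfrb (6.40) at their lowest, and Cspg4 in between. NC replicate 3, at 5.03, had a marker mean of 6.30, which was not the lowest of that group (5.92 on replicate 2). The part of smooth muscle in these values was not tested.

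**Figure D4:**
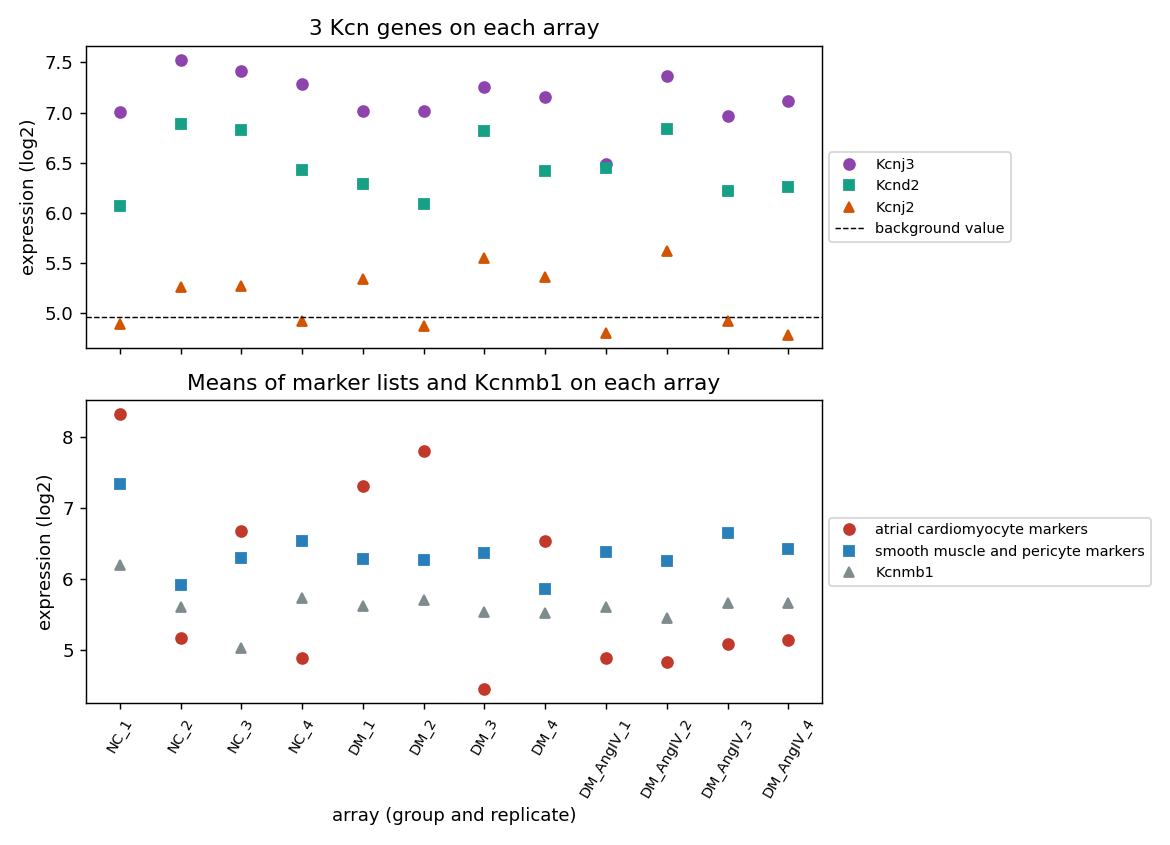
Expression (log2) on each array of Kcnj3, Kcnd2 and Kcnj2 (upper panel) and of the atrial marker mean, the smooth muscle and pericyte marker mean and Kcnmb1 (lower panel); the dashed line in the upper panel is the background value. DM replicate 3 and DM_AngIV replicate 2 are highest in their groups for all 3 upper genes, and the atrial marker mean is between 4.83 and 5.14 on the DM_AngIV arrays.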

How the data were processed

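Log2 expression values of 12 arrays, 1 per mouse, were deposited by the authors as 1 table made with robust multi-array average (RMA), per the submitters' processing notes; its version is not given in the sources used here. Of 29129 probe sets, 19572 were named by GEO's platform table, each by 1 symbol; 55 symbols had several probe sets, of which the one with the highest mean was kept, giving 19505 genes. All 90 Kcn genes had 1 probe set.

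A mean per group was fitted to all 12 arrays with lmFit and eBayes (limma 3.58.1, R 4.3.3), two-sided, and p-values were adjusted over all genes; the fit was tested on simulated data. Intervals are at 95%, before adjustment. P-values set each difference between groups against the spread between mice within groups, as moderated by eBayes over all genes, and the number of arrays limits the precision. A gene is above background in a group if at least 1 array is above the 95th percentile of the reporter controls. Named genes were those of the main cardiac currents, the 6 with the smallest p per comparison, members above background in a group without overlap, those beside the background value, and the 3 highest and 3 lowest in mean signal. Members and lists were chosen with earlier results of these data known; the motifs and the array-to-array description were chosen after seeing the values. Same-numbered arrays correlated with r between −0.10 and 0.17 (1 of 12 above 0.1), so the numbers were not taken as pairs. Figures used matplotlib 3.10.9 in Python 3.11.15.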

Additional observations from a re-analysis of the deposited data

Results flagged for a closer look

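Among 84 sets of 4 arrays (1 Kcn gene in 1 group each), 6 held 1 array that stood apart from the other 3; chance flags about 1 in 20. In DM_AngIV, Kcnj12 read 6.22 on replicate 1 against 6.82 to 6.87 on the others, Kcnj2 read 5.62 on replicate 2 against 4.79 to 4.92, Kcnd3 read 5.74 on replicate 4 against 5.53 to 5.54, and Kcna7 read 5.04 on replicate 4 against 5.14 to 5.16. In DM, replicate 3 stood apart in Kcna4 (1.80 against 2.41 to 2.53) and Kcnh8 (2.05 against 2.70 to 2.81), both below background on every array. Of these genes, Kcnj12 was the one whose call in DM_AngIV against NC depended on the array that stood apart, as given with its values.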

How the results depend on the processing

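The count of 0 called Kcn genes was kept by every alternative in DM against NC and DM_AngIV against DM, where 9 and 4 had an unadjusted p below 0.05. In DM_AngIV against NC (6 unadjusted) the count was 1 with the trended and robust prior. It ranged from 0 to 1 over single arrays left out, and in the F test (10 unadjusted) from 0 to 1. No share of all genes is given for the unadjusted F test, so its 10 genes are not set against the array. Of 19 named values under 22 alternatives, 411 results in all, 408 kept their direction and side of the threshold, and Kcnh8 in DM against NC reversed, to −0.14 without the arrays with Myl7. At the 99th percentile of the controls 11 genes, not 19, were above background on all arrays.

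Counts over all genes moved more. In DM against NC 3 genes became 28 with the trended and robust prior, 0 without the arrays with Myl7, 2 to 30 with single arrays left out and 1745 unadjusted. In DM_AngIV against DM 0 became 0 to 5 with single arrays left out and 1459 unadjusted. In DM_AngIV against NC 198 became 476 without dim genes, 115 with the replicate block, 514 with the trended and robust prior, 50 without the arrays with Myl7, 81 to 302 with single arrays left out and 2855 unadjusted. Fewer genes tested, or fewer arrays, explain part by construction; otherwise the cause was not tested. The replicate block changed no Kcn call.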
